A study of Rattus norvegicus with 10 samples.

Results

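The 10 genes studied belong to the insulin-like growth factor (IGF) axis of rat mammary tumours and were chosen by symbol: the ligands Igf1 and Igf2, the receptors Igf1r and Igf2r, and the binding proteins Igfbp2, Igfbp3, Igfbp4, Igfbp5, Igfbp6 and Igfbp7. They are 10 of the 14217 genes with a probe set of their own on the Affymetrix Rat Genome 230 2.0 array, where a probe set is the group of probes that reads 1 transcript. Where a gene had several probe sets, the brightest by mean log2 signal over the 10 arrays stood for it. All 10 passed the filter on dim probe sets, a mean log2 signal above 5.15.

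IGF1 and IGF2 are small secreted hormones related to insulin. They act through the receptor tyrosine kinase IGF1R, while the IGF2 receptor carries IGF2 to lysosomes for breakdown. A family of binding proteins holds the ligands in blood and tissue and can block or deliver them, and IGFBP7, a related secreted protein, binds them weakly. In the rodent mammary gland, IGF1 from liver and stroma supports duct growth, and IGFBP5 is known for its increase when the gland regresses after lactation.

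The total tumours were mammary tumours taken whole at sacrifice from female Sprague-Dawley rats, an outbred strain, at 19 weeks of age. The biopsies were needle samples of 0.7 cm by 2.5 mm, taken at 12 weeks when the tumour measured 2 cm3. Every rat had received 100 mg/kg of the carcinogen 7,12-dimethylbenz(a)anthracene (DMBA) by mouth, no sample had a further treatment, the series text gives grade II as the histological criterion for the tumours, and no healthy mammary tissue was analysed here. The labels name the same 5 tumours in both groups, 31D3, 32D1, 37I1, 50I1 and 52I4, and the comparison asked how a tumour at the end differed from its own early biopsy. Age, way of sampling and the run of array numbers in the labels all change with the group, so their effects cannot be told apart from each other. The series text names a needle sample at the late moment too, and the sample labels, which name the whole tumour, were followed.

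The tissue label was checked against markers. The epithelial genes Krt8, Krt18 and Epcam were bright on every array, with lowest log2 signals of 11.39, 11.85 and 12.75. Of 5 hepatocyte markers 3 passed the filter, Apoc3, Ttr and Serpina1, with mean log2 signals of 5.58 to 6.92 in total tumours and 5.33 to 6.97 in biopsies, while Alb did not pass and had a highest signal of 5.61. Of 8 skeletal muscle markers 1 was tested, the actin Acta1, which reached 9.48 in the total tumour of 37I1, and 11.92 and 8.13 in the biopsies of 37I1 and 50I1. Fibroblast markers, 10 of 10 tested, had mean log2 signals of 10.46 to 11.75 in total tumours and 8.27 to 11.87 in biopsies, the lowest in biopsy 37I1 and the highest in biopsy 50I1.

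No member passed the test between total tumours and biopsies, and the SD of every member over the 10 arrays lay above the median of all probe sets tested. Of 10 members, 7 had a higher mean in total tumours and 3 a lower one, where 47.2% of all probe sets tested were higher, but the intervals of 9 included 0. Igf2, the fetal growth ligand, was bright in both samples of tumour 50I1 and in biopsy 32D1 and dim elsewhere. Igf1 and Igfbp6 went opposite ways in different tumours, with differences from -1.85 to 2.40 and from -1.09 to 2.67 log2 units. Igfbp4, a binding protein that mainly inhibits IGF action, was the member with a higher signal in the total tumour of every pair, by 0.51 on average.

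The test was limma's moderated test with the tumour as a block, fitted on 18625 probe sets and adjusted over all of them by Benjamini-Hochberg. By limma 0 of 10 members had an adjusted p under 0.05, where the share of all probe sets called was 0%. At an unadjusted p under 0.05 there was 1 member, against 6.08% of all probe sets, and the adjusted p of the members lay between 0.737 and 0.990. The members' median log2 difference was 0.21 and that of all probe sets tested -0.01. The groups overlapped for every member, while 0.773% of all probe sets had groups that did not. Nothing in the labels tells whether each tumour grew in a rat of its own, and the p-values cover the spread between these 5 tumours only.

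**Figure D1:**
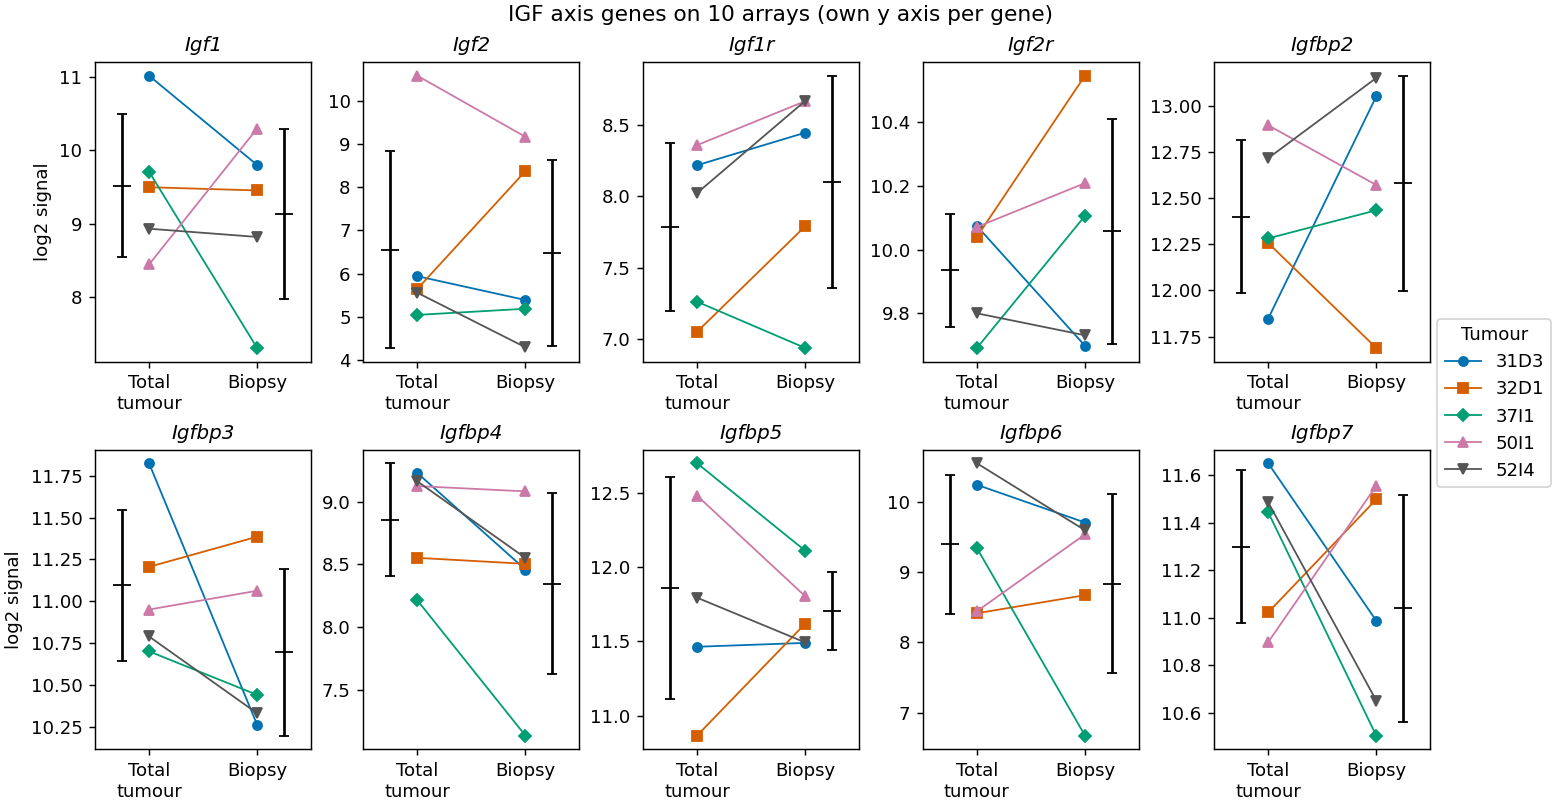
Log2 signal of each of the 10 members (own y axis per gene) in total tumours (left) and biopsies (right). Lines join the samples of a tumour, and black bars are the mean and SD of 5 arrays. Igf2 stood above 8 on 3 of 10 arrays, and only Igfbp4 was higher in the total tumour of all 5 pairs.

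Among the ligands, Igf2 differed most between tumours. Its probe set 1367571_a_at had log2 signals of 5.94 in 31D3, 5.65 in 32D1, 5.05 in 37I1, 10.58 in 50I1 and 5.56 in 52I4 in the total tumours. In the biopsies it had 5.39 in 31D3, 8.37 in 32D1, 5.19 in 37I1, 9.16 in 50I1 and 4.30 in 52I4. Thus 3 of 10 arrays were bright, both samples of 50I1 and the biopsy of 32D1, and the groups overlapped fully.

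The total tumour of 50I1 lay 4.64 log2 units above the next total tumour, which is 24.9-fold. The 2 bright biopsies lay at least 2.98 log2 units, or 7.88-fold, above the other biopsies. On 2 arrays, the total tumour of 37I1 and the biopsy of 52I4, the signal was at or under the filter limit of 5.15, where lower levels are hard to tell apart. Between the samples of 1 tumour, Igf2 had differences of -2.72 for 32D1 and -0.14 for 37I1, and of 0.55, 1.41 and 1.26 for 31D3, 50I1 and 52I4. Proliferation markers, 7 of 8 tested, had the same sign as Igf2 in 5 of 5 tumours. They differed by 1.28 in 31D3, -0.68 in 32D1, -0.55 in 37I1, 0.90 in 50I1 and 1.10 in 52I4. The other marker lists shared the sign of Igf2 in between 1 (adipocyte) and 4 (hepatocyte) of 5 tumours. In 37I1 and 52I4 that sign rests on the 2 dim arrays. The part of proliferation in the Igf2 signal was not tested. The mean difference of Igf2 was 0.07 (SE 0.597, 95% interval -1.36 to 1.51), with an adjusted p of 0.990 in limma, and it was -0.26 without tumour 50I1 and 0.77 without 32D1.

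Igf2 has 3 other probe sets, and these stayed dim on every array. Their means were 4.44, 4.01 and 3.93, and over the 10 arrays they spanned only 0.28, 0.66 and 0.42 log2 units, whereas the bright probe set spanned 6.28. The bright signal of 50I1 therefore rests on a single probe set. All 3 were annotated to the same GenBank sequence, and which part of the transcript each probe set reads was not analysed here.

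Igf2 is an imprinted gene that in mammals is expressed from the father's copy, and H19, a noncoding RNA expressed from the mother's copy, is its annotated neighbour on rat chromosome 1. H19 had log2 signals of 5.81 in 31D3, 5.76 in 32D1, 5.68 in 37I1, 6.61 in 50I1 and 7.43 in 52I4 in the total tumours. H19 biopsy signals were 5.39 in 31D3, 8.82 in 32D1, 5.81 in 37I1, 9.49 in 50I1 and 5.37 in 52I4. Both neighbours were thus bright in the biopsies of 32D1 and 50I1, and both were lower in the total tumour of 32D1, with differences of -2.72 for Igf2 and -3.06 for H19. In 50I1 they parted, since Igf2 was higher in the total tumour by 1.41 and the difference of H19 was -2.88. The mean difference of H19 was -0.72 (SE 0.782), with an adjusted p of 0.918 in limma.

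H19 also came up by pattern. The genes nearest to Igf2 over the 10 arrays, of 10792 compared, were Mtmr7, a phosphatase of the myotubularin family, H19 and Nppb, a natriuretic peptide. Likeness was measured as the root-mean-square (RMS) difference between log2 profiles, each centred on its own mean. The RMS differences were 1.44 for Mtmr7, 1.46 for H19 and 1.47 for Nppb, where Igf2 itself varied by 1.98 about its mean. Profiles were not scaled, so a gene of smaller range lies far from Igf2 by this measure even with a like pattern. Over the 10 arrays the SD was 2.08 for Igf2 and 0.763 for Mtmr7. Mtmr7 was highest on the arrays bright for Igf2, with 7.56 in total tumour 50I1 and 7.36 and 7.32 in biopsies 32D1 and 50I1. H19 was lower in total tumour 50I1 (6.61) than in 52I4 (7.43). Nppb was lower in biopsy 50I1 (5.03) than in total tumour 32D1 (5.34).

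**Figure D2:**
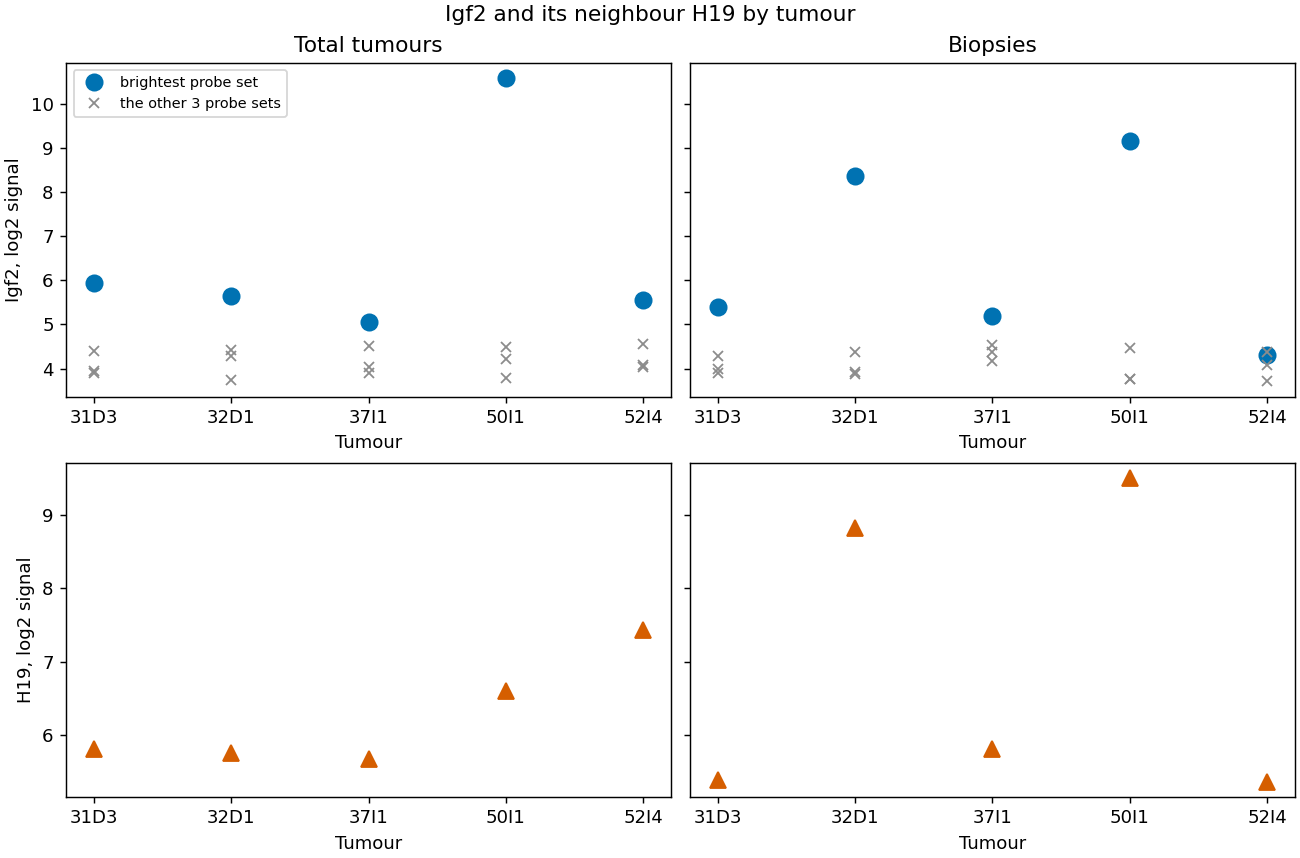
Log2 signal of Igf2 (top, 4 probe sets) and of its neighbour H19 (bottom) in each total tumour (left) and biopsy (right), 1 point per array and probe set. Biopsies 32D1 and 50I1 were bright for both genes, the total tumour of 50I1 reached 10.58 for Igf2 but 6.61 for H19, and the other Igf2 probe sets stayed flat.

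RefSeq annotates 2 starts for Igf2, and both promoters are shown because Igf2 is the member with the widest range between tumours and its bright probe set does not say which start was used. The windows run from 250 bases before the start to 50 after it, on build GRCr8, minus strand of chromosome 1, at chr1:207253931-207254230 for the upstream start and chr1:207250426-207250725 for the downstream one. Capitals mark the GC box GGGCGG on either strand (CCGCCC when on the other), which the factor SP1 can bind.
Igf2 upstream start: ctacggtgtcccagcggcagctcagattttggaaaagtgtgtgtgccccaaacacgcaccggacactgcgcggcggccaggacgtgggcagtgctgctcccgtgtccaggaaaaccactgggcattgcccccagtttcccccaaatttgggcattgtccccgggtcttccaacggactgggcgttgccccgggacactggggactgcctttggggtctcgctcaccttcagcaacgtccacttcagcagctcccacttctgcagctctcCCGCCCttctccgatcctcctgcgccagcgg
Igf2 downstream start: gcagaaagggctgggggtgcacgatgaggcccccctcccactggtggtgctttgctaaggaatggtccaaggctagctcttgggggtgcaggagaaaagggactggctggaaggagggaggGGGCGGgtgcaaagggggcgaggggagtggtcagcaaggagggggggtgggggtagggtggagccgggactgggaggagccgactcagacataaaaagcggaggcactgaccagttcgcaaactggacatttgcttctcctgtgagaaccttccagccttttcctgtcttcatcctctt
Each window holds 1 GC box, as 33.1% of 33469 promoter windows of this length hold at least 1. The upstream window has 19 CpG dinucleotides and the downstream one 7, the median of all windows being 7. The TATA box letters TATAAA and the E-box CACGTG were in neither window.

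Igf1, the main postnatal ligand, differed strongly between the samples of the same tumour in 3 of 5 tumours, and not in 1 direction. Probe set 1370333_a_at had log2 signals of 11.01 in 31D3, 9.49 in 32D1, 9.71 in 37I1, 8.44 in 50I1 and 8.93 in 52I4 in the total tumours. In the biopsies these were 9.80 in 31D3, 9.45 in 32D1, 7.31 in 37I1, 10.29 in 50I1 and 8.82 in 52I4. The lowest array was biopsy 37I1 and the highest the total tumour of 31D3, and the groups overlapped.

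Igf1 was higher in the total tumour by 1.21 in 31D3 and 2.40 in 37I1, and close to its biopsy in 32D1 and 52I4, with differences of 0.04 and 0.11. In 50I1 the difference was -1.85. The mean of 0.38 (SE 0.560, 95% interval -0.96 to 1.73) had an adjusted p of 0.940 in limma and was -0.12 without tumour 37I1 and 0.94 without 50I1. All 3 probe sets of Igf1 had a higher mean in total tumours, with differences between 0.38 and 0.58, and they had the same sign in 4 of 5 tumours.

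The genes nearest to Igf1 in pattern were Pltp, Cd53 and Itgb2, by the same measure. The RMS difference was 0.228 for Pltp, 0.237 for Cd53 and 0.247 for Itgb2, where Igf1 itself varied about its mean by 0.973. Pltp encodes a phospholipid transfer protein, Cd53 a tetraspanin of leukocytes and Itgb2 the shared beta chain of leukocyte integrins. For Cd53 the differences by tumour were 1.02 in 31D3, -0.11 in 32D1, 2.13 in 37I1, -1.81 in 50I1 and -0.76 in 52I4.

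Macrophage markers, 8 of 8 tested, had mean log2 signals of 8.54 to 10.64 in total tumours and 7.91 to 10.46 in biopsies. Their differences were 0.86 in 31D3, -0.33 in 32D1, 2.05 in 37I1, -1.92 in 50I1 and -0.55 in 52I4, large in the same 3 tumours and with the same sign as Igf1 in 3 of 5. T cell markers, 7 of 7 tested, differed by 1.59 in 31D3, -0.53 in 32D1, 2.01 in 37I1, -1.64 in 50I1 and -0.90 in 52I4, also with the sign of Igf1 in 3 of 5 tumours. Fibroblast, endothelium and adipocyte markers, the last with only 2 of 7 tested, each shared it in 4 of 5. Basal and myoepithelium markers shared it in 0 of 5. For 32D1 and 52I4 the sign of Igf1 rests on differences of only 0.04 and 0.11. In bulk tissue, fewer cells of a type and less RNA per cell cannot be told apart, and the part of these cells in the Igf1 signal was not tested.

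**Figure D3:**
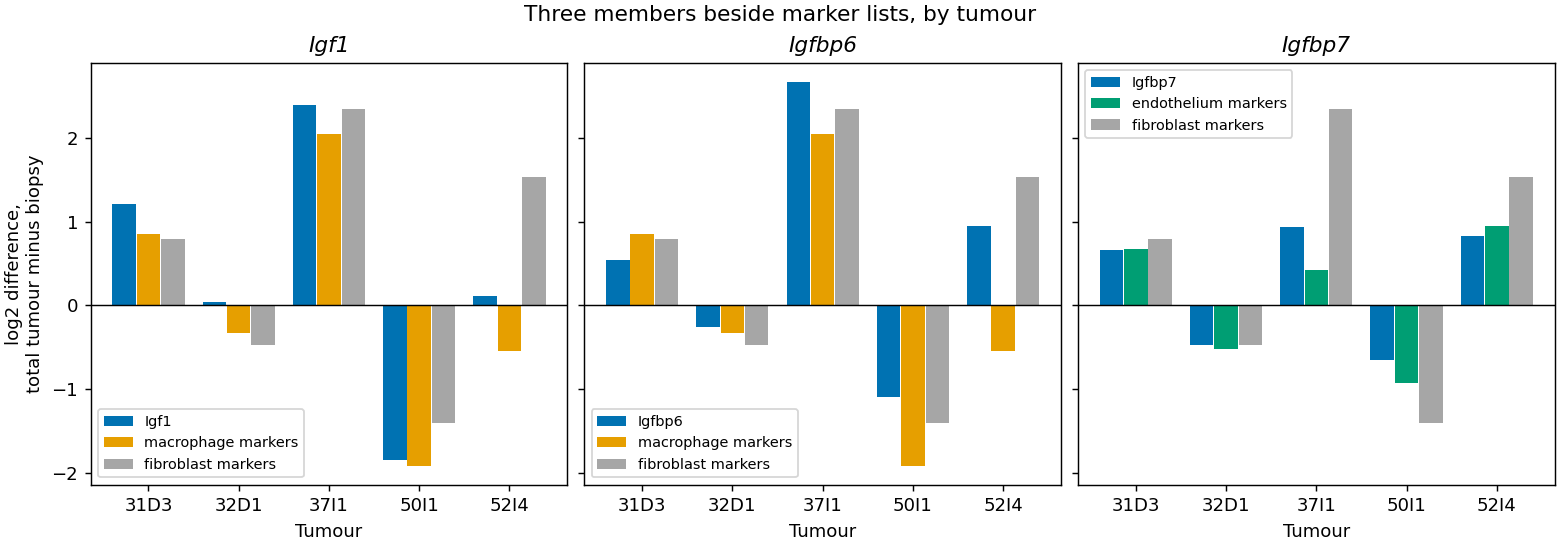
Log2 difference, total tumour minus biopsy, by tumour for Igf1, Igfbp6 and Igfbp7 (blue) beside the mean of the tested macrophage, fibroblast or endothelium markers. In 37I1 Igf1 was 2.40 and Igfbp6 2.67 higher in the total tumour, beside 2.35 for the fibroblast markers, and in 50I1 the bars of all these pointed down.

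Of the receptors, Igf1r kept an order of tumours that was similar in both samples. Probe set 1392492_at had log2 signals of 8.22 in 31D3, 7.05 in 32D1, 7.26 in 37I1, 8.36 in 50I1 and 8.02 in 52I4 in the total tumours. The biopsies had 8.45 in 31D3, 7.79 in 32D1, 6.94 in 37I1, 8.67 in 50I1 and 8.67 in 52I4. Tumours 31D3, 50I1 and 52I4 lay above 32D1 and 37I1 at both ages, although the 2 groups of samples overlapped.

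Igf1r was lower in the total tumour of 4 of 5 pairs, with a mean difference of -0.32 (SE 0.168, 95% interval -0.72 to 0.09) and an adjusted p of 0.846 in limma. The pair that went the other way was 37I1, by 0.32, and with that tumour left out the mean was -0.48, with an unadjusted p of 0.0131 and an adjusted p of 0.620 in limma. The other probe set of Igf1r had a mean difference of -0.10 but was higher in the total tumour of 3 of 5 pairs. The 2 probe sets shared their sign in 3 of 5 tumours. The nearest patterns were those of Myb, a transcription factor (RMS difference 0.243), Slit2, a secreted guidance protein (0.258), and Tox, a nuclear DNA-binding protein (0.266), where Igf1r varied by 0.619 about its mean.

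The promoter of Igf1r is shown because this gene had the smallest p of the members for a difference between tumours, as given further on. It lies on the plus strand at chr1:130959747-130960046 of GRCr8, and capitals mark a GC box and an E-box, which do not overlap.
Igf1r: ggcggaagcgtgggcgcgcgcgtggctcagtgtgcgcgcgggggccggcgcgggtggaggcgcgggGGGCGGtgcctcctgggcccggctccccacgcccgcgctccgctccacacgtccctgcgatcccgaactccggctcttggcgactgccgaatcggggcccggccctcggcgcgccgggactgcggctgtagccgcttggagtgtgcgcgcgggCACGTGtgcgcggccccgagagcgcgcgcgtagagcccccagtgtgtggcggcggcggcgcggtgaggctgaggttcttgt
The window holds 50 CpG dinucleotides and no TATAAA. The E-box CACGTG, a site for MYC-type factors, is in 6.42% of all windows.

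Igf2r, the receptor that removes IGF2, varied least of the members. Probe set 1386872_at had log2 signals of 10.07 in 31D3, 10.04 in 32D1, 9.69 in 37I1, 10.07 in 50I1 and 9.80 in 52I4 in the total tumours. Its biopsies had 9.70 in 31D3, 10.55 in 32D1, 10.11 in 37I1, 10.21 in 50I1 and 9.73 in 52I4. All arrays lay within 0.856 log2 units. Of the arrays bright for Igf2, biopsy 32D1 was the highest for Igf2r and biopsy 50I1 the next, while the total tumour of 50I1 lay among the rest.

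Igf2r had a mean difference of -0.12 (SE 0.150, 95% interval -0.48 to 0.24), with 3 of 5 pairs lower and an adjusted p of 0.923 in limma. Dropping a tumour put the mean between -0.25 (31D3 dropped) and -0.03 (32D1 dropped). Its other probe set gave -0.10 and had the same sign in 5 of 5 tumours. Relative to all probe sets tested, the SD of Igf2r over the 10 arrays stood at percentile 55.3.

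Igfbp4 was the binding protein with the most uniform direction. Probe set 1371462_at had log2 signals of 9.23 in 31D3, 8.55 in 32D1, 8.21 in 37I1, 9.12 in 50I1 and 9.16 in 52I4 in the total tumours. Biopsy signals were 8.46 in 31D3, 8.50 in 32D1, 7.14 in 37I1, 9.08 in 50I1 and 8.55 in 52I4. The total tumour was higher in all 5 pairs, clearly in 31D3, 37I1 and 52I4 and by only 0.05 in 32D1 and 0.04 in 50I1, and the groups overlapped.

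The mean difference of Igfbp4 was 0.51 (SE 0.179, 95% interval 0.08 to 0.94), or 1.42-fold. Its unadjusted p was 0.0274 and its adjusted p 0.737 in limma, so it did not pass. The exact sign-flip permutation test over the 5 pairs gave p = 0.0625 (two-sided), the smallest that 5 pairs allow. A higher signal in all 5 pairs was seen in 2.12% of all probe sets tested, and 1 of 10 members showed it. The mean was 0.37 without tumour 37I1 and 0.63 without 50I1. Leaving out 31D3 gave an unadjusted p of 0.0808 in limma, leaving out 37I1 gave 0.0782, and 0.0737 was obtained when 52I4 was dropped.

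The promoter of Igfbp4 is shown because no other member had this uniform direction. It lies on the plus strand at chr10:84491221-84491520 of GRCr8, and capitals mark a TATA box, TATAAA, from position 211 counted from the 5′ end of the window.
Igfbp4: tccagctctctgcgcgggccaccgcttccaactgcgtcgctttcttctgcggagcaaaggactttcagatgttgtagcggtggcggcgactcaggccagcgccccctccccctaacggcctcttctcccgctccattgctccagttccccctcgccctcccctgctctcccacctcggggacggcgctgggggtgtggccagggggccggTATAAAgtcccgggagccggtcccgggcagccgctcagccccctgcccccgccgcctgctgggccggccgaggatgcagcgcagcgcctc
The TATA box letters are in 14.2% of all windows on either strand, and of the members' 11 windows only this one holds them. A match is a description of these letters and not of a factor bound there.

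Igfbp6, a binding protein that prefers IGF2, had the widest range among the binding proteins. Probe set 1372168_s_at had log2 signals of 10.24 in 31D3, 8.41 in 32D1, 9.34 in 37I1, 8.44 in 50I1 and 10.55 in 52I4 in the total tumours. The biopsies gave 9.71 in 31D3, 8.67 in 32D1, 6.67 in 37I1, 9.54 in 50I1 and 9.59 in 52I4. Biopsy 37I1 stood lowest of all arrays and the total tumour of 52I4 highest, with overlapping groups.

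By tumour, Igfbp6 differed by 0.54 in 31D3, -0.26 in 32D1, 2.67 in 37I1, -1.09 in 50I1 and 0.95 in 52I4. The fibroblast markers had the same sign in 5 of 5 tumours, with 0.80 in 31D3, -0.47 in 32D1, 2.35 in 37I1, -1.41 in 50I1 and 1.53 in 52I4, and endothelium markers also shared the sign in 5 of 5 and macrophage and T cell markers in 4 of 5. The part of any of these in Igfbp6 was not tested. On average Igfbp6 differed by 0.56 (SE 0.504, 95% interval -0.65 to 1.77), with an adjusted p of 0.896 in limma, and it was 0.03 without 37I1 and 0.98 without 50I1. The nearest patterns were Efemp1, a fibulin of the matrix (RMS difference 0.394), Ctsk, the protease cathepsin K (0.446), and Vgll3, a transcription cofactor (0.454), where Igfbp6 varied by 1.06 about its mean.

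Igfbp7, a protein made by blood vessels and stroma, differed little between tumours once both samples were averaged. Probe set 1371357_at had log2 signals of 11.65 in 31D3, 11.02 in 32D1, 11.44 in 37I1, 10.90 in 50I1 and 11.49 in 52I4 in the total tumours. For Igfbp7 the biopsies had 10.99 in 31D3, 11.50 in 32D1, 10.50 in 37I1, 11.55 in 50I1 and 10.65 in 52I4. Tumours 32D1 and 50I1 were the highest biopsies and the lowest total tumours, while 31D3, 52I4 and 37I1 kept their order in both groups.

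Igfbp7 differed on average by 0.26 (SE 0.280, 95% interval -0.41 to 0.94), with 3 of 5 pairs higher and an adjusted p of 0.917 in limma. With a tumour left out the mean lay between 0.09 (without 37I1) and 0.49 (without 50I1). Endothelium markers, 7 of 8 tested, had mean log2 signals of 6.92 to 7.97 in total tumours and 6.95 to 7.85 in biopsies. Their differences were 0.68 in 31D3, -0.53 in 32D1, 0.43 in 37I1, -0.93 in 50I1 and 0.95 in 52I4, with the same sign as Igfbp7 in 5 of 5 tumours, as had the fibroblast markers. The part of either in the Igfbp7 signal was not tested.

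Igfbp3, the main carrier of IGFs in blood, differed mostly in 1 tumour. Probe set 1386881_at had log2 signals of 11.82 in 31D3, 11.21 in 32D1, 10.70 in 37I1, 10.95 in 50I1 and 10.79 in 52I4 in the total tumours. The Igfbp3 biopsies had 10.26 in 31D3, 11.39 in 32D1, 10.44 in 37I1, 11.06 in 50I1 and 10.33 in 52I4. Tumour 31D3 had the lowest biopsy and the highest total tumour, 1.56 log2 units apart, while the other pairs differed by 0.46 at most.

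The mean difference of Igfbp3 was 0.40 (SE 0.260, 95% interval -0.23 to 1.02), with an adjusted p of 0.873 in limma, and it was 0.11 without 31D3. Fibroblast and endothelium markers each had the same sign as Igfbp3 in 5 of 5 tumours, and macrophage and T cell markers in 4 of 5. The part of any of these in its signal was not tested. The other probe set of Igfbp3 gave 0.21 and had the same sign in 4 of 5 tumours, all but 37I1, where it gave -0.23. That value is opposite in sign to the fibroblast and endothelium markers of 37I1, which differed by 2.35 and 0.43. Igfbp1, its annotated neighbour on chromosome 14 and a liver protein, stayed dim, with mean log2 signals of 3.43 ± 0.15 in total tumours and 3.29 ± 0.15 in biopsies (SD, n = 5 each).

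Igfbp2 and Igfbp5 are annotated neighbours on chromosome 9, and their differences had opposite signs in 3 of 5 tumours. Igfbp2, a binding protein with affinity for IGF2, had log2 signals of 11.85 in 31D3, 12.26 in 32D1, 12.28 in 37I1, 12.89 in 50I1 and 12.72 in 52I4 in the total tumours. In the biopsies its probe set 1367648_at had 13.05 in 31D3, 11.69 in 32D1, 12.43 in 37I1, 12.57 in 50I1 and 13.15 in 52I4. The difference was -1.20 in 31D3 and 0.57 in 32D1, and fibroblast and endothelium markers had the same sign as Igfbp2 in 0 of 5 tumours. Luminal epithelium markers, 10 of 10 tested, and basal and myoepithelium markers, 5 of 7 tested, shared its sign in 4 of 5, and the part of these cells was not tested.

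Igfbp5 read by probe set 1370960_at had log2 signals of 11.46 in 31D3, 10.87 in 32D1, 12.70 in 37I1, 12.48 in 50I1 and 11.79 in 52I4 in the total tumours. Igfbp5 biopsy signals were 11.49 in 31D3, 11.62 in 32D1, 12.11 in 37I1, 11.80 in 50I1 and 11.49 in 52I4. The biopsies lay close together, and the total tumours spread out around them, with 37I1 and 50I1 on top and 32D1 lowest.

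The SD of Igfbp5 was 0.75 in total tumours and 0.26 in biopsies, and Igf2 was the other member with a larger SD in total tumours. For 8 of 10 members the SD was larger in biopsies, which held for 57.4% of all probe sets tested, and these spreads were not tested. The mean difference of Igfbp2 was -0.18 (SE 0.257, adjusted p = 0.939 in limma) and 0.08 without 31D3, and that of Igfbp5 was 0.16 (SE 0.219, adjusted p = 0.937 in limma). For Igfbp5 the mean was 0.38 when 32D1 was left out, with an unadjusted p of 0.0489 in limma, 0.05 when 37I1 was and 0.03 when 50I1 was. Of the 5 Igfbp5 probe sets 4 had a higher mean in total tumours, and their differences lay between -0.13 and 0.16.

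**Figure D4:**
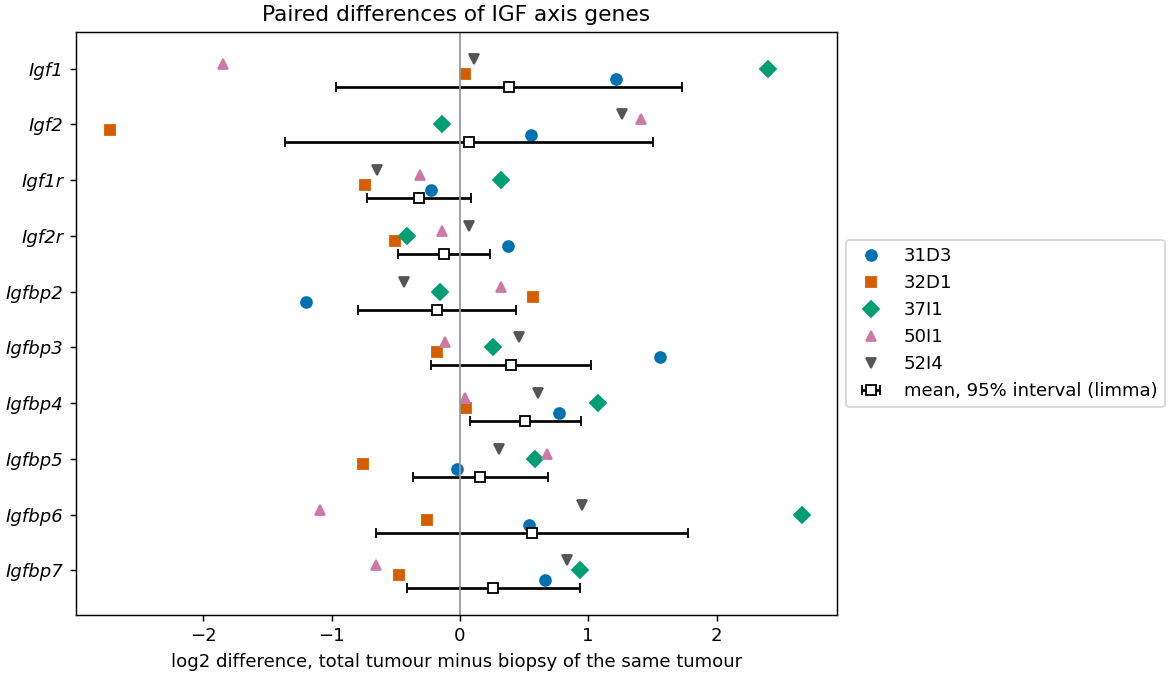
Log2 difference, total tumour minus biopsy of the same tumour, for each member. Coloured points are the 5 tumours and the open square with its bar is limma's mean with the 95% interval, which excludes 0 for Igfbp4 alone, before adjustment.

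Seen by tumour, 37I1 had the lowest biopsy for 5 of 10 members, Igf1, Igf1r, Igfbp4, Igfbp6 and Igfbp7. Tumour 31D3 had the highest total tumour for 5 of 10, Igf1, Igf2r, Igfbp3, Igfbp4 and Igfbp7. In the total tumour 8 of 10 members were higher in 52I4, 7 in 31D3 and 7 in 37I1, against 4 in 50I1 and 3 in 32D1. The matching shares over all probe sets are not given here, so these counts cannot tell a trait of the members from one of the arrays. The members went opposite ways in different tumours.

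The members varied more between arrays than most probe sets tested. Each member is read by the brightest probe set of its gene, and a comparison with the brightest probe sets of other genes was not made. The SD over the 10 arrays had a median of 0.58 for the members and 0.25 for all probe sets tested, and 10 of 10 members lay above that median. Igf2 stood at percentile 99.9, Igfbp6 at 98.2 and Igf1 at 97.4 of all probe sets tested.

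Whether the tumours differed from each other was tested by a limma F test over the 5 tumours with the group kept in the model, which was chosen after the values were seen. It called 16 of 18625 probe sets, 0.0859%, and 0 of 10 members, with a lowest adjusted p of 0.270. At an unadjusted p under 0.05 there were 3 members, Igf1r (0.00445), Igf2 (0.00770) and Igfbp4 (0.0128), against 10.5% of all probe sets. For these 3 members the SD of the tumour means exceeded the SD of the pair differences, which largely restates the F test, since it compares the same spreads. For Igf2 these SDs were 2.04 and 1.68, for Igf1r 0.636 and 0.419, and for Igfbp4 0.557 and 0.456. For the other 7 members the SD of the pair differences was the larger, as it would also be, on average, for samples that share nothing.

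The rest of the pathway gave no call either. Of 64 listed genes around the axis 45 were tested, and limma called 0 of 45 at an adjusted p under 0.05. At an unadjusted p under 0.05 there was 1 of 45, Pik3ca, against 6.08% of all probe sets.

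Genes that carry the signal inside the cell, 26 of 32 tested, had 10 higher and 16 lower means and a median difference of -0.02. Pik3ca, a catalytic subunit of PI3 kinase, had a log2 signal of 8.71 ± 0.18 in total tumours and 9.06 ± 0.31 in biopsies (SD, n = 5 each), a difference of -0.35 (SE 0.136) with an adjusted p of 0.798 in limma. Foxo3, a transcription factor that AKT keeps out of the nucleus, differed by -0.23 (SE 0.143).

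Genes that set how much IGF is free, 7 of 14 tested, had 5 higher and 2 lower means and a median difference of 0.18. The protease Adamts1 had a log2 signal of 10.04 ± 1.02 in total tumours and 9.21 ± 1.62 in biopsies (SD, n = 5 each), a difference of 0.83 (SE 0.499). The protease Mmp7 differed by 0.80 (SE 0.539), although only 2 of 5 pairs were higher.

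Of the growth hormone axis, which drives Igf1 in liver, 10 of 14 genes were tested, 5 with higher and 5 with lower means. The feedback inhibitor Socs3 differed by 0.39 (SE 0.198) and Socs2, an inhibitor of growth hormone signalling, by -0.42 (SE 0.240), each in 4 of 5 pairs, and limma gave both an adjusted p of 0.846. Of 4 genes around the Igf2 transcript 2 were tested, H19 and Igf2bp2, an RNA-binding protein named for Igf2 mRNA, which differed by 0.10 (SE 0.213).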

How the data were processed

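The authors deposited a log2 signal for each probe set and array, normalized with Robust Multichip Average (RMA) per the labels, which removes a shift shared by most transcripts. Values of 2.34 to 14.26 show the log2 scale. The version of RMA is not given in the sources used here, nor is the chip definition. GeneSpring GX 7.3 is named in the series text for the paired statistics. No further transformation was made. Array medians lay between 5.99 and 6.11 and correlations between arrays between 0.952 and 0.989.

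Of 31099 probe sets, 57 controls and the dimmest 40% were left out, which left 18625. Only the 20826 probe sets with 1 gene in the platform annotation were named. Total tumours were compared with biopsies in limma 3.58.1 under R 4.3.3, the tumour being the block, since the series text names a paired test. The pairing comes from the tumour names in the labels. Deviations from the group means correlated above 0.1 in 4 of 5 pairs, with -0.21 in 50I1. Correlations between samples of different tumours are not given here, so these values cannot check the pairing. The fit was tested on simulated data. Figures were drawn with matplotlib 3.10.9.

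Members and lists were chosen with earlier results of these data known. All members were named. Of each pathway list the 2 genes with the smallest p were named, since none passed, and for the 4 members with the largest SD the 3 nearest patterns. Igfbp1 and the marker genes Krt8, Krt18, Epcam, Alb and Acta1 were named after their values were seen. Promoters come from RefSeq, GRCr8, where 10 of 10 members matched by symbol. Alternatives were other filters, no block, the methods' t-test, an intensity trend, array weights, other normalizations, the mean of probe sets and leaving out each tumour. The number of arrays limits the precision.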

Additional observations from a re-analysis of the deposited data

Results flagged for a closer look

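The log2 signal of Igf2 in the total tumour of 50I1, 10.58, stood far from the other 4 total tumours, which lay between 5.05 and 5.94. Its gap to the nearest was 0.838 of the whole range of the 5 total tumours, above Dixon's 95% critical value for 5 samples. Of 20 sets of 5 arrays examined (10 members in each group) this was the 1 set with such a sample, where chance alone gives about 1 in 20. The biopsy of the same tumour was also the brightest biopsy for Igf2, at 9.16, so the high signal was read on 2 separate arrays, but by the same single probe set. The other Igf2 probe sets stayed dim in both samples.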

How the results depend on the processing

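By limma and by the methods' t-test, 0 members and 0 probe sets passed between total tumours and biopsies under every alternative run, while 1013 probe sets reached an unadjusted p under 0.05 in the t-test. Without the replicate block (no paired analysis) the count of members was also 0, and Igfbp4 kept its difference of 0.51 with an unadjusted p of 0.166 in limma. Over 140 values (10 members, 14 alternatives each) the sign turned in 5, each time with a tumour left out, and the lowest adjusted p was 0.538. With a tumour left out, Igf1 lay between -0.12 and 0.94, Igf2 between -0.26 and 0.77 and Igfbp2 between -0.37 and 0.076. The other 7 members kept their sign in all 14. Array weights lowered Igf1 to 0.05 and raised Igf2 to 0.34. The F test between tumours called 16 probe sets, 26 with no filter, and 0 to 1 with a tumour left out (1 without 37I1, 0 without 31D3, 32D1, 50I1 or 52I4), where fewer arrays are fitted, and 0 members in each. Quantile normalization and median centring moved the median of all probe sets by at most 0.03. Signals near 5 or below carry little information on lower levels, which touches the dim Igf2 arrays.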
